A study of Homo sapiens with 2 samples.

Results

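NRF2 (gene NFE2L2) is a transcription factor that switches on antioxidant and detoxifying genes. The genes described here are NFE2L2, its inhibitor KEAP1, the repressor BACH1 and 7 core targets, namely HMOX1, OSGIN1, GCLM, GCLC, SRXN1, TXNRD1 and NQO1. They were chosen by name, and every probe set that the platform annotation paired with 1 of these 10 symbols and no other was taken. This gave 21 of 41091 single-gene probe sets, and 10 of 19775 named genes. Their transcripts were compared between PC-3 cells that had received RD (riccardin D, a macrocyclic bisbibenzyl made by liverworts) at 10 µmol/L for 24 h and control PC-3 cells, with 1 Affymetrix HG-U133 Plus 2.0 array for each. PC-3 is an established line of androgen-independent human prostate cancer cells. The labels call the control cells not treated, while the treatment protocol gives them DMSO, the solvent of RD, and the dose was taken from the title of the study's supplementary table.

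In unstressed cells KEAP1 holds NRF2 and hands it to the CUL3 and RBX1 ubiquitin ligase, so that the protein is destroyed soon after it is made. Electrophiles and oxidants modify cysteines of KEAP1, NRF2 escapes, and with a small MAF partner it binds antioxidant response elements (ARE) near its target genes. BACH1 binds the same kind of element as a repressor, with HMOX1 as its best known target, and leaves it when haem accumulates. The arrays measured transcripts, so the amount and location of the NRF2, KEAP1 and BACH1 proteins were not measured.

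The search for elements in the starts of these genes is shown first, because it gives the sequence that defines the pathway beside genes whose transcripts differed widely here. RefSeq start windows (GRCh38.p14, 250 bases before to 50 bases after a start) were found for 9 of the 10 genes, in 14 windows, and HMOX1 was not among them. The ARE core TGACNNNGC was searched on both strands, as was TGANTCA, the AP-1 element, which shares the letters TGA with it and can overlap it. Of 35116 such windows in the genome, 13.3% hold the ARE core and 7.71% hold TGANTCA. Among the 14 windows the ARE core was found in 4, which belong to GCLM, TXNRD1 and KEAP1. The windows of NQO1, GCLC, SRXN1, OSGIN1, NFE2L2 and BACH1 do not hold the ARE core, which says nothing about elements outside them. The 250 bases before the start are printed for GCLM, whose signals were over 5 times control, and for NQO1, whose signals were near control, with the ARE core in capitals.
GCLM, chr1:93909431-93909680, minus strand: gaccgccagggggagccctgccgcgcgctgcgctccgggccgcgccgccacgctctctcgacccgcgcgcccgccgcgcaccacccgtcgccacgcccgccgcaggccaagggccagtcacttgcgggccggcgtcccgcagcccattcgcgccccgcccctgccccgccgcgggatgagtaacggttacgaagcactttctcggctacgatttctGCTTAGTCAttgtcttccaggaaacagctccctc
NQO1, chr16:69726561-69726810, minus strand: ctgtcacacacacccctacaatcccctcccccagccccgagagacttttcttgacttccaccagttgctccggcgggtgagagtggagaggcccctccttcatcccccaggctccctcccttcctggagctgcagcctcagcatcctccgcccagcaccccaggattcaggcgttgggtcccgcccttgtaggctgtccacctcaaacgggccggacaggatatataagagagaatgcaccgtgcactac
The GCLM match begins 34 bases before the start and reads TGACTAAGC on the strand opposite to the gene. In the other windows the matches are shown within 30 bases, read along the gene, with the match in capitals. KEAP1 and TXNRD1 carry the ARE core, while OSGIN1 and BACH1 carry only TGANTCA.
KEAP1, chr19:10502806-10502835, minus strand: acttttattgTGACACGGCgggcgcccggc
KEAP1, chr19:10502783-10502812, minus strand: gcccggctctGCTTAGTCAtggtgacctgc
TXNRD1, first window, chr12:104215670-104215699, plus strand: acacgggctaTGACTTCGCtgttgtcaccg
TXNRD1, first window, chr12:104215761-104215790, plus strand: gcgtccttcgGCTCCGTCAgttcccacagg
TXNRD1, second window, chr12:104286920-104286949, plus strand: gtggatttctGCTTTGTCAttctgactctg
OSGIN1, chr16:83953132-83953161, plus strand: cgggcccctgcTGACTCAcgcttatgaaag
BACH1, chr21:29298863-29298892, plus strand: cgcggaaggagTGAGTCAcctgaccgctgc
The second KEAP1 match is TGACTAAGC on the opposite strand, the same 9 letters as in GCLM. A match of letters is a description of the window and not a sign that a factor was bound.

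The values are MAS5 signals on a linear scale, after the authors' correction for background and scaling of each array. A probe set is a group of short oligonucleotides that reads the transcripts of a gene, and signals of different probe sets are not comparable with each other, so only the difference between arrays was compared between genes. The terms called higher and called lower are used where both signals differed at least 2-fold and the larger one reached 66.9, the median of all signals, termed the floor. Where several probe sets read a gene, the brightest by mean log2 signal represents it. With 1 array for each condition there is no replicate error and no p-value, and any other difference between both cultures goes with the treatment. The scatter that could be measured was that among probe sets reading the same gene, taken as the SD of their log2 differences, which was 0.34 over 8576 probe sets whose higher signal reached 377.4 (the 75th percentile, termed the bright limit) and 0.76 over 18518 probe sets at or above the floor. RNA came from whole cultures, so a change in all cells and a larger change in some of them cannot be told apart.

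RD-treated cells had higher signals for 6 of the 7 core targets, by 2.15-fold (TXNRD1) to 7.75-fold (HMOX1) where both signals could be measured, whereas NQO1 was at 91.7% of control. Among the regulators, NFE2L2 itself was 2.31-fold higher, KEAP1 was at 1.64 times control, short of the rule, and BACH1 was at 1.05 times control. In all, 7 of the 10 genes were called higher and none was called lower. Over all 12818 genes at or above the floor, 12.1% were called higher, 13.3% were called lower and the median log2 difference (RD minus control) was -0.0022. Among the 9 genes whose signals both reached the bright limit, 6 were called higher and none lower, against 7.96% and 8.45% of 7050 such genes. At 3-fold, 5 of the 10 were higher and none lower (background 5.21% and 6.05%), and at 1.5-fold, 8 were higher and none lower (background 22.8% and 24.7%). The 10 genes were selected with earlier results of these arrays known, so these counts describe them and are not independent evidence of a direction. Over probe sets, 18 of the 21 reached the floor, 12 of these were called higher and none lower, where the background over 24934 single-gene probe sets was 13.4% higher and 13.2% lower. The median log2 difference was 1.46 over the 18 and 0.022 over the background. The 3 others, 1 each of NFE2L2, BACH1 and TXNRD1, were under the floor on both arrays and give no usable difference.

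**Figure D1:**
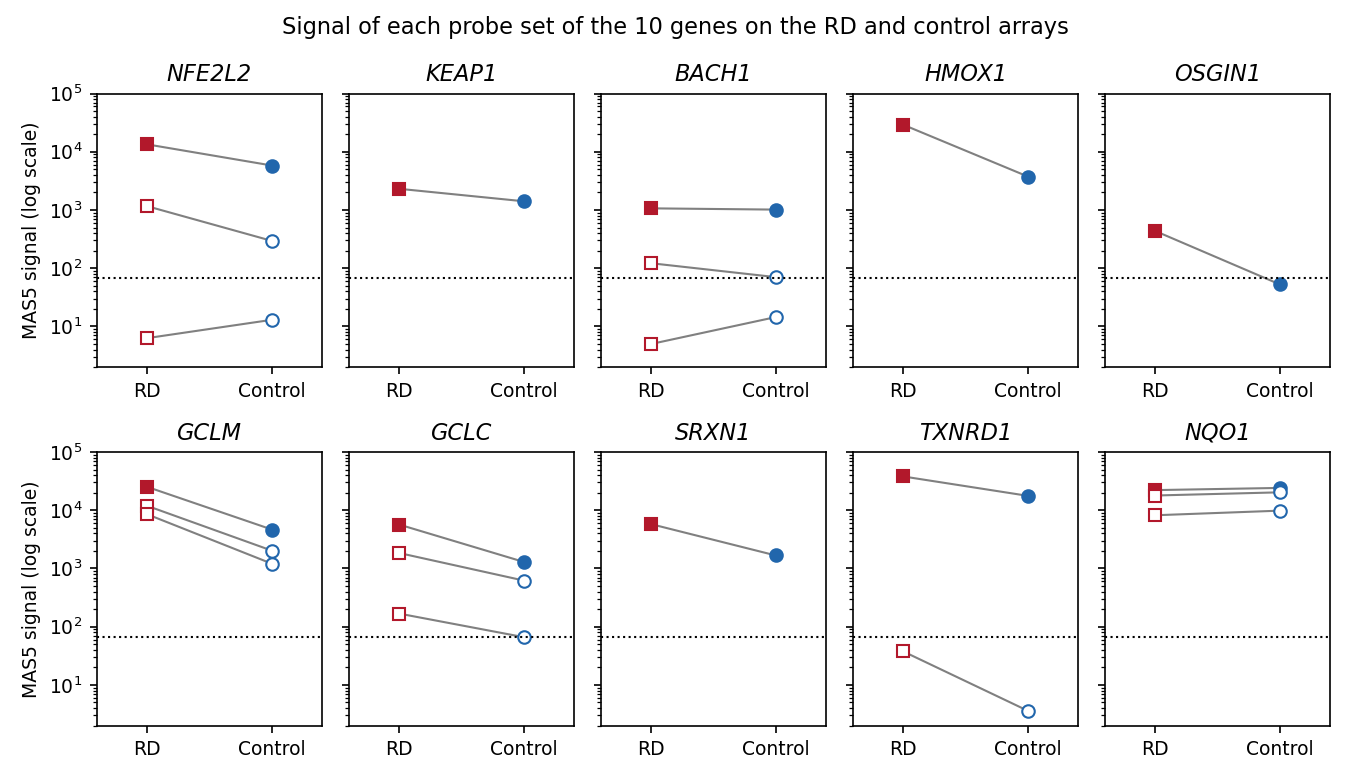
MAS5 signal (vertical, log scale) of every single-gene probe set of the 10 genes on the RD array (red squares) and the control array (blue circles), with lines joining 1 probe set, filled symbols for the brightest probe set of a gene, open symbols for its others and a dotted line at the floor of 66.9. HMOX1 stands at 29096.4 in RD-treated cells and 3752.3 in control cells, while the 3 NQO1 lines are nearly flat.

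HMOX1 encodes haem oxygenase 1, which opens the haem ring and releases biliverdin, carbon monoxide and iron. Its single probe set had a signal of 29096.4 in RD-treated cells and 3752.3 in control cells, a difference of 7.75-fold or 2.95 on the log2 scale. This placed HMOX1 at rank 12 from the top among the 7050 genes bright on both arrays. NQO1 encodes a quinone reductase that transfers electron pairs and so avoids semiquinone radicals, and it is often used as the readout of NRF2 activity. Its brightest probe set had a signal of 22161.9 in RD-treated cells and 24170.8 in control cells (91.7% of control). The second had 17902.9 in RD-treated cells and 20304.4 in control cells (88.2%), and the third had 8199.8 in RD-treated cells and 9838.8 in control cells (83.3%). All 3 NQO1 probe sets were therefore slightly lower in RD-treated cells, by log2 differences of -0.13 to -0.26 that are within the scatter among probe sets (SD 0.34). NQO1 ranked 4081 among the same 7050 genes.

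The log2 difference of HMOX1 exceeded that of NQO1 by 3.08, so the HMOX1 ratio was 8.46 times the NQO1 ratio. A gap between 2 genes carries the scatter of both, and the scatter at the brightness of HMOX1 and NQO1 was not computed. Over all probe sets that reached the bright limit it was 0.48 (the SD of 0.34 times the square root of 2). The gap between HMOX1 and NQO1 is 6.38 times as large. It compares genes on 2 arrays and is not a replicate test, and since HMOX1 was read by a single probe set its own scatter is not known. The NQO1 probe sets all carry the suffix _s_at, which marks oligonucleotides that can also match other transcripts. Their signals were among the brighter ones on the arrays, and a range of brightness chosen after the values were seen was examined for this reason. Of the 582 single-gene probe sets with a control signal within the NQO1 range (9838.8 to 24170.8), 2.23% were called higher, 16.5% were called lower and the median log2 difference was -0.32. These were picked by the control signal alone, which can by itself tilt the ratios downward. Genes bright on both arrays were 7.96% higher and 8.45% lower. TXNRD1 lay in the same range at 17667.9 in control cells and was called higher. The highest signal on the RD array was 62967.5, and 341 probe sets there were above the brightest NQO1 probe set. Whether the start level of the signal had a part in the flat NQO1 values was not tested.

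**Figure D2:**
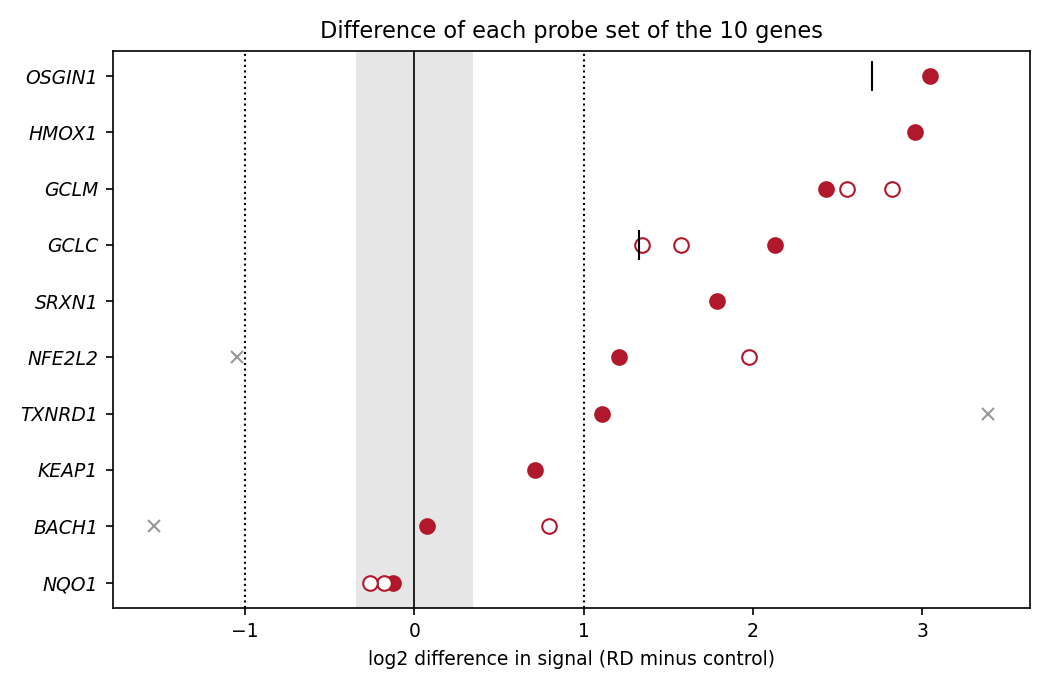
Log2 difference in signal (RD minus control, horizontal) of each probe set, by gene in the order of the brightest probe set (filled circles), with open circles for other probe sets, crosses for those under the floor on both arrays and short black bars for the difference measured against the floor where the control signal lay under it. Dotted lines mark 2-fold and the grey band is the SD of 0.34, within which all 3 NQO1 probe sets lie.

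GCLM and GCLC encode the modifier and the catalytic subunit of glutamate-cysteine ligase, which makes the first and limiting step of glutathione synthesis. GCLM was read by 3 bright probe sets, with signals of 25204.8, 11914.9 and 8538.6 in RD-treated cells and 4669, 2026.3 and 1209.7 in control cells, in the same order. The ratios were 5.40, 5.88 and 7.06, so all of its probe sets were called higher and they differed little among themselves. The brightest GCLC probe set had 5681.3 in RD-treated cells and 1295.8 in control cells (4.38-fold higher). A second had 1844.8 in RD-treated cells and 620.3 in control cells (2.97-fold higher), and the dimmest had 168.1 in RD-treated cells and 66.2 in control cells, just under the floor, and was at least 2.51-fold higher. The log2 difference of GCLM exceeded that of GCLC by 0.30 with the brightest probe sets, which is less than the same scatter. That GCLC probe set carries the suffix _s_at. Every GCLM ratio was above every GCLC ratio. By the median over probe sets the log2 differences were 2.56 for GCLM and 1.57 for GCLC, further apart than the scatter. That scatter was taken from probe sets that reached the bright limit, which the dimmest GCLC probe set did not.

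OSGIN1 encodes a growth inhibitor that is induced by oxidative stress. Its signal was 435.9 in RD-treated cells and 52.7 in control cells, under the floor, so it was at least 6.52-fold higher. Its place beside HMOX1 is not settled by these values, because the bound is smaller than the HMOX1 ratio and the measured ratio of 8.27 is larger. SRXN1 encodes sulfiredoxin, which restores overoxidised peroxiredoxins, and its signal was 5772.9 in RD-treated cells and 1672.4 in control cells (3.45-fold higher). TXNRD1 encodes cytosolic thioredoxin reductase, which uses NADPH to reduce thioredoxin. Its bright probe set had 38049.7 in RD-treated cells and 17667.9 in control cells (2.15-fold higher), the smallest difference of the targets called higher. A second TXNRD1 probe set had 37.7 in RD-treated cells and 3.6 in control cells, both under the floor.

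Among the regulators the probe sets of NFE2L2 differed in size. The brightest had 13388.8 in RD-treated cells and 5803.6 in control cells (2.31-fold higher), and another had 1162.5 in RD-treated cells and 294.9 in control cells (3.94-fold higher). The third, with 6.3 in RD-treated cells and 13 in control cells, was under the floor. A further probe set that the annotation gives to NFE2L2 together with CSNK2A1, and that was not counted here, had 803.6 in RD-treated cells and 683.4 in control cells. KEAP1, the adaptor that recruits NRF2 to the ligase, had 2310.3 in RD-treated cells and 1410.6 in control cells by its single probe set, a log2 difference of 0.71 that does not reach 2-fold.

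BACH1 differed little. Its brightest probe set had 1066.7 in RD-treated cells and 1015 in control cells, a log2 difference of 0.07. A dim probe set had 121.8 in RD-treated cells and 70.3 in control cells (1.73 times control), and the third, with 5 in RD-treated cells and 14.5 in control cells, was under the floor. The probe sets that the annotation gives to BACH1 together with GRIK1-AS2 were outside the rule. The brightest of them had 284.9 in RD-treated cells and 281.3 in control cells, and both others were under the floor.

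Ordered by the brightest probe set, the log2 differences were 3.05 for OSGIN1, 2.95 for HMOX1, 2.43 for GCLM, 2.13 for GCLC, 1.79 for SRXN1, 1.21 for NFE2L2, 1.11 for TXNRD1, 0.71 for KEAP1, 0.07 for BACH1 and -0.13 for NQO1. The scatter of 0.48 for a gap between 2 genes was again used as the measure. With the brightest probe sets, 3 of the 9 neighbouring pairs were apart by more than this, namely HMOX1 and GCLM (gap 0.52), SRXN1 and NFE2L2 (gap 0.58), and KEAP1 and BACH1 (gap 0.64). When each gene was instead given the median of those probe sets that reached the floor, a choice made after the values were seen, these gaps were 0.40, 0.19 and 0.28, all within the measure. None of the 9 pairs that are neighbours by the brightest probe set was therefore apart by more than the measure under both choices. The medians also changed the order, and genes that are neighbours only by the medians were not compared in this way. The medians did set some others of these pairs apart by more than the measure. These medians were 2.56 for GCLM and 1.57 for GCLC, and 0.43 for BACH1 and -0.18 for NQO1. The measure comes from probe sets that reached the bright limit, while the medians take in dimmer ones. Over all probe sets at or above the floor the SD was 0.76, so the measure may be too small for these gaps. The 3 genes with the ARE core as searched in a start window, GCLM, TXNRD1 and KEAP1, lay at different places in the order by the brightest probe set. By the rule of likeness, the genes bright on both arrays whose difference was nearest to that of HMOX1 were DDIT3, which encodes the stress factor CHOP (14414.3 in RD-treated cells and 1838.1 in control cells, log2 difference 2.97), and MAP1B, a microtubule-associated protein gene (9226.8 in RD-treated cells and 1222.2 in control cells, log2 difference 2.92). The nearest to NQO1 were FASTKD1 (log2 difference -0.12) and HP1BP3 (log2 difference -0.13). With 2 arrays, likeness means only an equal difference.

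**Figure D3:**
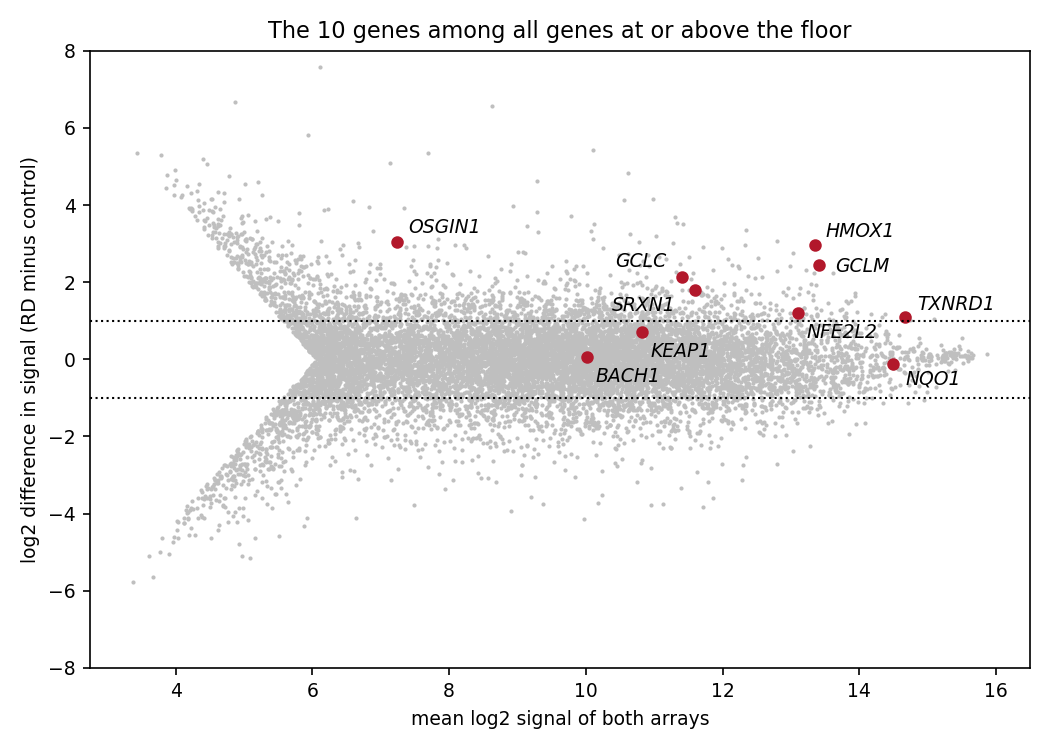
Log2 difference in signal (RD minus control, vertical) against the mean log2 signal of both arrays (horizontal) for the 12818 genes at or above the floor (grey), with the 10 genes in red and dotted lines at 2-fold. HMOX1 and GCLM lie at the upper edge of the cloud at their brightness, and NQO1 lies within the cloud at the bright end.

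The wider pathway was described with 6 lists of other genes, 65 in all, written with earlier results of these arrays known. Of 56 listed genes at or above the floor, 12 were called higher and 10 lower, with a median log2 difference of 0.14, against the background of 12.1% higher and 13.3% lower. The list of glutathione supply and recycling held 5 higher and 1 lower of 11 genes, with a median of 0.64. SLC3A2 and SLC7A11 encode the heavy and light chains of the cystine importer. SLC3A2 had 18813 in RD-treated cells and 3530.7 in control cells (5.33-fold higher), and SLC7A11 had 20485.5 in RD-treated cells and 5415.2 in control cells (3.78-fold higher). The glutaredoxin gene GLRX was 4.72-fold higher, with 27147.2 in RD-treated cells and 5755.2 in control cells. The glutathione peroxidase gene GPX2 was called higher, with 109.1 in RD-treated cells and 15.7 in control cells, but since the control signal lay under the floor it was at least 1.63-fold higher, a bound short of 2-fold. At the low end, GSS, the enzyme that completes glutathione, had 3331.4 in RD-treated cells and 7665.5 in control cells (43.5% of control). A second GSS probe set had 2615.1 in RD-treated cells and 4933 in control cells (53.0%), short of the rule. GGCT, which acts in glutathione breakdown, was at 70.0% of control. CHAC1, which cleaves glutathione and was named after its value was seen, was called higher, with 1656.9 in RD-treated cells and 728.4 in control cells (2.27-fold). Transcript signals for the first enzyme of the synthesis and for the cystine importer were thus higher. Those for the second enzyme were called lower by its brightest probe set only.

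Of 10 NRF2 partners and turnover genes, 3 were called higher, 3 lower, and the median was 0.10. The background was 12.1% higher and 13.3% lower. MAFF, a small MAF gene, had 17849.6 in RD-treated cells and 5312.2 in control cells (3.36-fold higher). MAFG, named here after its value was seen, was 2.91-fold higher, with 1226.6 in RD-treated cells and 421.5 in control cells. SQSTM1 encodes p62, which binds KEAP1 and carries it to autophagy, and had 28433.6 in RD-treated cells and 8570.7 in control cells (3.32-fold higher), though a dim probe set ran the other way with 18.7 in RD-treated cells and 199.2 in control cells. RBX1 was lower, with 3451.2 in RD-treated cells and 10432.2 in control cells (33.1% of control), whereas CUL3, outside the naming rule, was at 1.19 times control. NFE2L3, a relative of NRF2, was at least 2.13-fold lower, with 48.4 in RD-treated cells and 142.2 in control cells, but a second dim probe set ran the other way, with 84.4 in RD-treated cells and 53 in control cells. DPP3, a protein that binds KEAP1, was at 42.1% of control, though a second probe set was at 62.3%, short of the rule. GSK3B, a kinase that marks NRF2 for destruction without KEAP1, was at 87.0%.

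The detoxification and transport list was split, with 4 higher and 5 lower of 18 genes and a median of 0.07, against the background of 12.1% higher and 13.3% lower. Only 1 gene called higher had both signals above the floor. It was TRIM16, named after its value was seen, with 1655.7 in RD-treated cells and 568.3 in control cells (2.91-fold higher). The aldo-keto reductase gene AKR1C1 had 454.5 in RD-treated cells and 60.6 in control cells (at least 6.79-fold higher), and AKR1C2 had 244.5 in RD-treated cells and 31.1 in control cells (at least 3.65-fold higher). Both genes are near-identical copies read by probe sets with the suffix _x_at, so their signals cannot be assigned to 1 of them, and another AKR1C1 probe set ran the other way, with 6.6 in RD-treated cells and 96.7 in control cells. AKR1B10 was at least 1.54-fold higher, again a bound short of 2-fold, with 103.3 in RD-treated cells and 24.2 in control cells. The carbonyl reductase gene CBR3 had 530.3 in RD-treated cells and 1613 in control cells (32.9% of control). The glutathione transferase gene GSTA4 was at least 2.22-fold lower (51 in RD-treated cells and 148.2 in control cells), and GSTP1 was at 43.3% of control with 1496.3 in RD-treated cells and 3453.6 in control cells.

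The remaining lists held few called genes, where the background was 12.1% higher and 13.3% lower. None of 5 NADPH regeneration genes was called, with IDH1 at 1.69 and ME1 at 1.63 times control and a median of 0.14. None of 3 thioredoxin and peroxiredoxin genes was called, with TXN at 98.2% and PRDX1 at 75.2% of control, next to the 2.15-fold of TXNRD1. Of 9 haem and iron genes, FLVCR1, long described as a haem exporter, was called lower at 46.3% of control (733.7 in RD-treated cells and 1585.9 in control cells). The largest value on the other side was ABCB6, a porphyrin transporter gene, at 1.74 times control, and the ferritin light chain gene FTL, chosen after its value was seen as a known BACH1 and NRF2 target, was at 1.27 times control with 50619.1 in RD-treated cells and 39953.7 in control cells. No single-gene probe set was matched to MAFK, AKR1B1 or FTH1. HMOX1 was 7.75-fold higher, and none of the 9 matched genes on the haem and iron list was called higher. With so few genes and a background of 12.1%, the lack of such a gene says little about that list.

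**Figure D4:**
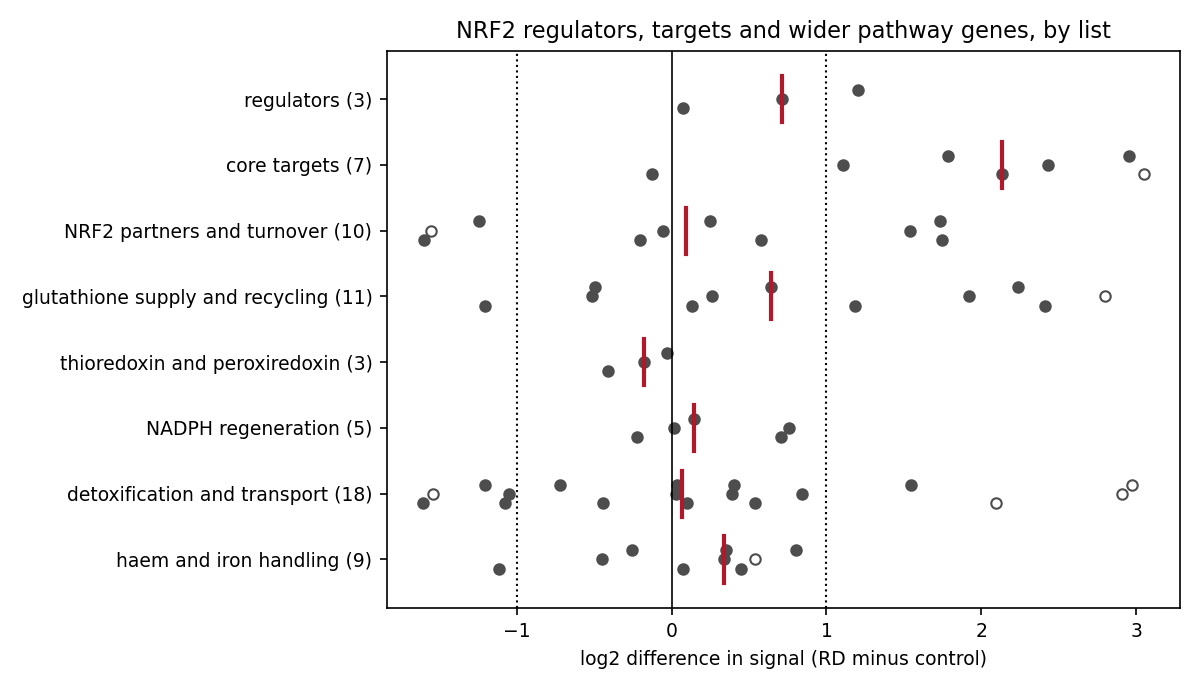
Log2 difference in signal (horizontal, RD minus control) of genes that reached the floor, in rows for the lists (number of genes after the name), with red bars at the medians and dotted lines at 2-fold. Open circles have 1 signal under the floor and are drawn at the measured difference. The core targets have a median of 2.13 with NQO1 alone left of 0, and the detoxification genes (median 0.07) spread on both sides.

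Facts of the whole arrays bear on these values as follows. The median signal was 67.8 on the RD array and 65.9 on the control array, and the mean without the extreme 2% at each end was 495.9 on the RD array and 495.8 on the control array. The cells were checked against 6 markers of PC-3 and of epithelium. KRT18 (15416.6 in RD-treated cells and 10224.2 in control cells) and VIM (31652.1 in RD-treated cells and 29512.2 in control cells) were bright and KRT8 was dim (159.3 in RD-treated cells and 113.8 in control cells), while EPCAM, CDH1 and KRT19 lay under the floor on both arrays in every probe set. PC-3 is known as an epithelial line, so these 3 of the 6 markers go against the label, and the name PC-3 is used here as the labels give it. Of the luminal prostate markers, which PC-3 is known to lack or hold at low levels, KLK2 and TMPRSS2 were under the floor and KLK3 reached it with 1 of 3 probe sets. Of 5 matched markers of other cell types, 2 reached the floor, PECAM1 and COL1A1, and none was bright on both arrays, with summed signals of 434.5 in RD-treated cells and 574.1 in control cells. The part of these marker levels in the differences above was not tested.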

How the data were processed

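The authors deposited 1 intensity for each probe set and array, and their processing notes name MAS5, which gives signals on a linear scale. For MAS5, neither a version nor a target of the scaling was given in the sources used here, and no detection calls were analysed here. MAS5 subtracts mismatch signals, so dim signals are noisy and their ratios can be large. Log2 differences (RD minus control) were computed from the deposited values without offset or further scaling. Of 54613 probe sets, 41091 were paired with 1 gene by the platform annotation, 1801 were paired with several, and 11721 were not named here. Symbols were checked through the gene numbers of RefSeq (GRCh38.p14), which changed 0 of them. Sequences are from the RefSeq table of the same assembly.

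With a single array of each condition, the treatment was not tested. The rule of size, the floor and the scatter between probe sets are given with the results. Named were the 10 genes with every probe set, up to 4 called genes of each further list and up to 2 at its other end, and the 2 nearest genes to HMOX1 and to NQO1. Some listed genes are left unreported. The 10 genes and the lists were chosen with earlier results of these data known. Alternatives were centring, quantile normalization, adding 17.1 (the 25th percentile) to every signal, raising dim signals to the floor, the median over probe sets, only probe sets without a shared-sequence suffix, no floor, a floor of 377.4, and thresholds of 1.5-fold and 3-fold. Precision is limited by the number of arrays. The scripts were tested on simulated data with known shifts. Computations used pandas 2.3.3 and numpy 2.4.6 in Python 3.11.15, with plots by matplotlib 3.10.9.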

Additional observations from a re-analysis of the deposited data

How the results depend on the processing

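Under all 10 alternatives, between 5 and 8 of the 10 genes were called higher and none was called lower. The 5 arose at 3-fold, where the background was 5.21% higher and 6.05% lower. The 8 arose at 1.5-fold, where it was 22.8% higher and 24.7% lower. The other alternatives gave 7, and the background was not recomputed for them. With the main rule it was 12.1% higher and 13.3% lower. The 5 past 3-fold were OSGIN1, HMOX1, GCLM, GCLC and SRXN1, and KEAP1 was the eighth at 1.5-fold. The gap between HMOX1 and NQO1 on the log2 scale ranged from 3.07 to 3.14 over 5 alternatives, and it could not be computed from probe sets without a shared-sequence suffix, since NQO1 has none. NQO1 ranged from -0.18 to -0.11 and BACH1 from 0.04 to 0.07. The median over probe sets put TXNRD1 at 2.25 in place of 1.11, because it takes in the probe set that was under the floor on both arrays, and GCLC at 1.57 in place of 2.13. OSGIN1 ranged from 2.70 to 3.05. No paired analysis was possible because each condition had 1 array.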
